A study of Mus musculus with 21 samples.

Results

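A group of 10 genes that encode activating receptors of the immunoglobulin type, or the chains and adaptors through which such receptors signal, was followed in cultured mouse natural killer (NK) cells lacking Ikaros, Aiolos or both. They were chosen by name, with earlier results of these data known, and all 10 were found among the 11736 genes of the deposited table. The receptors were Ncr1, Fcgr3, Cd244a, Cd226 and Slamf7, the signalling chains Fcer1g, Cd247, Tyrobp and Hcst, and the adaptor Sh2d1a. The genotypes were the double knockout of Ikzf1 and Ikzf3 (DKO, 3 libraries, S5 to S7), Ikzf1 KO (4 libraries, S12 to S15), Ikzf3 KO (4 libraries, S1 to S4) and Cre only (4 libraries, S16 to S19), named after their columns. Ikzf1 encodes Ikaros and Ikzf3 encodes Aiolos, both zinc finger transcription factors of lymphocytes. The knockouts were conditional deletions in NK cells and the controls carried Cre alone. All 4 genotypes were therefore taken to have the recombinase, which the sample titles do not state for the knockouts. The promoter that drives Cre, the strain and the age of the mice were not given in the sources used here. All cells were sorted from spleen and kept in medium with human interleukin 15 at 50 ng/ml, a cytokine that sustains NK cells. The column names state the genotype but not the culture, and the columns were assigned to the cultured samples because only those group sizes match. A further 6 samples of directly sorted cells were not analysed here.

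NK cells recognise targets through many receptors whose cytoplasmic tails carry little signalling capacity of their own. NKp46 (Ncr1) pairs with the FcRγ (Fcer1g) or CD3ζ (Cd247) chain, and the low affinity IgG receptor CD16 (Fcgr3) pairs with FcRγ. Both chains hold the tyrosine motifs called ITAMs. DAP12 (Tyrobp) is a further ITAM chain, used by activating Ly49 receptors, and DAP10 (Hcst) carries NKG2D and recruits phosphoinositide 3-kinase. 2B4 (Cd244a) and CRACC (Slamf7) are receptors of the SLAM family and signal through small SH2 domain adaptors such as SAP (Sh2d1a) and EAT-2 (Sh2d1b1). DNAM-1 (Cd226) binds nectin-type ligands, for which the inhibitory receptors TIGIT and CD96 compete.

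The promoter letters of 4 of these genes are shown because Fcgr3, Cd244a and Slamf7 had lower transcript levels in DKO cells than in Cre only cells, while Fcer1g was not called and held the most matches to the Ikaros core. Each runs 5′ to 3′ over 250 bases before and 50 bases after the start site, from RefSeq on GRCm38.p6. In GENCODE M21 the minus strand genes Fcgr3 and Slamf7 begin farther upstream, at bases 171064935 and 171653035 of chromosome 1. Their stretches shown here therefore lie inside those gene models, and other start sites were not examined. Capitals mark GGGAA, the core bound by Ikaros family proteins, or its reverse TTCCC, and TGANTCA, the AP-1 motif, on either strand.
Fcgr3 (chr1:171059354-171059653, minus strand): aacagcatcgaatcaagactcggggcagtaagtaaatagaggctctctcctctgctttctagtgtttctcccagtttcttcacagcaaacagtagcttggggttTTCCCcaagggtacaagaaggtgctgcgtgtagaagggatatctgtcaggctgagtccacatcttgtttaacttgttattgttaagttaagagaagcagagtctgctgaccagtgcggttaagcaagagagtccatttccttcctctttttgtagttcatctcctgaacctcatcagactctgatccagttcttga
Fcer1g (chr1:171234300-171234599, minus strand): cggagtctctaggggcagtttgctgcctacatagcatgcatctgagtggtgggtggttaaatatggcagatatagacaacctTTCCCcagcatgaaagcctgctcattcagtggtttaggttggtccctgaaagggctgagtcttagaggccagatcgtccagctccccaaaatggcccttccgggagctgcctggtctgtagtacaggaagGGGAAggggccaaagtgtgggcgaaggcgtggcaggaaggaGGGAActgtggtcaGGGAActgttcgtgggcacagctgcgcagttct
Cd244a (chr1:171558943-171559242, plus strand): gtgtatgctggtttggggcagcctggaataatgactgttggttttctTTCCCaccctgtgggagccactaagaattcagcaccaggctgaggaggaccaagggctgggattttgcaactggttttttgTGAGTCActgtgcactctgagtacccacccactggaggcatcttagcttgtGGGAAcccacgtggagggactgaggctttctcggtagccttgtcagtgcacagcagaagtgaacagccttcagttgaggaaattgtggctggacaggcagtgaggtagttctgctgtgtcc
Slamf7 (chr1:171648950-171649249, minus strand): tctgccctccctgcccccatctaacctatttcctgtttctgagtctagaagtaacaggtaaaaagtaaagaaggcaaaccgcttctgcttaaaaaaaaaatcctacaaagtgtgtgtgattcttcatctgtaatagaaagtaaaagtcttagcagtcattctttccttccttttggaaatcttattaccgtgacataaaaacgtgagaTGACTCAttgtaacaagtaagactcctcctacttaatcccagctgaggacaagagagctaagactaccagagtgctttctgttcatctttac

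Of the 10 genes, 7 had an entry in the RefSeq promoter table, and the others, Tyrobp, Cd226 and Sh2d1a, are named only. GGGAA was in 4 of the 7 promoters, with 4 matches in Fcer1g, 2 in Cd244a and 1 each in Fcgr3 and Hcst. It was in 62.3% of all 27025 promoters of the same length. TGANTCA was in 2 of the 7, Cd244a and Slamf7, against 7.93% of all. The RUNX motif TGTGGT was in 2 of the 7, with 1 match in Fcer1g and 2 in Ncr1, against 16.9% of all. GGGAA contains the ETS core GGAA, so the letters do not part the families, and no match overlapped another in these promoters. These matches describe letters and no binding was measured.

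The deleted genes were lower in the cells meant to lack them. Ikzf1 averaged 30.3 ± 7.12 RPKM in DKO, 19.1 ± 0.662 in Ikzf1 KO, 81.4 ± 6.34 in Ikzf3 KO and 61.9 ± 5.22 in Cre only cells (± SD, n = 3 for DKO and 4 for each other genotype). Ikzf3 averaged 21.5 ± 1.96 RPKM in DKO cells, 48.3 ± 1.52 in Ikzf1 KO cells, 17.8 ± 2.37 in Ikzf3 KO cells and 41.8 ± 3.68 in Cre only cells (SD, same n). RPKM, reads per kilobase of gene per megaread, covers whole genes here, so deleted exons cannot be seen apart. Between 8.61 and 21.25 megareads per library were recovered from the steps of the values, and the fewest for any of the 10 genes was 221 reads, for Sh2d1a in S16. Of 11 NK markers 10 had a row and all 10 averaged at least 1 RPKM in every genotype, with sums of 3667 to 8965 RPKM in DKO cells, 24021 to 27258 in Ikzf1 KO, 6900 to 19674 in Ikzf3 KO and 19688 to 24868 in Cre only cells. These sums were mostly the granzyme transcripts Gzma, with 1422 to 3974 RPKM in DKO and 9506 to 11749 in Cre only cells, and Gzmb, with 753 to 3432 in DKO and 7955 to 11121 in Cre only cells. In DKO against Cre only cells 4 of the 10 NK markers were called lower, none higher and 6 were not called. Prf1 had 10 to 66.4 RPKM in DKO and 390.2 to 1095 in Cre only cells, and Nkg7 had 726.1 to 972.5 and 1136 to 1229. The NK receptor transcripts Klrb1c, Klrd1 and Klrk1 and the NK transcription factor transcript Eomes were among those not called. Their log2 changes were -0.06, 0.09, 0.45 and 0.42, in this order. Ikzf3 KO libraries S3 and S4 stood apart from S1 and S2, and Cre only S16 and S17 from S18 and S19, and results that rest on them are given with and without them. Libraries S5, S15, S18 and S19 were set apart in an earlier account of these same data, so the r of their deviations over all genes do not test that choice. These r were 0.139 to 0.409 across 5 pairs of different genotypes. Pairs without any of these libraries reached similar r, such as S14 with S16 (0.328) and S2 with S6 (0.332). Outside Ikzf3 KO, pairs with only 1 library of the set had r of -0.402 to 0.096. Pairs that joined S5 or S18 with Ikzf3 KO S3 or S4 had r of 0.105 to 0.255, and those that joined S15 or S19 with them had r of -0.093 to 0.016.

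Setting DKO against Cre only cells addresses what the loss of both factors does to this receptor system. In DKO cells 4 of the 10 transcripts fell, Tyrobp, Fcgr3, Slamf7 and Cd244a, while Cd226 rose and 5 were not called. A gene was called at a Benjamini-Hochberg adjusted p below 0.05 in limma, over all 10032 genes tested. Among those, 8.06% were called higher and 10.6% lower in DKO cells. The median log2 change of the 10 genes was -0.57, against -0.00 over all genes tested. Since the samples are bulk RNA, fewer cells that express a gene and less of its RNA per cell cannot be told apart. In Ikzf1 KO cells none of the 10 was called higher and 2 fell, Cd247 and Cd244a, where 3.54% of all genes were called higher and 2.78% lower against Cre only cells. In Ikzf3 KO cells Sh2d1a rose and 3 fell, Cd226, Cd247 and Cd244a, where 6.3% of all genes were called higher and 7.88% lower. Medians of the 10 were -0.56 in Ikzf1 KO and -0.23 in Ikzf3 KO cells, against -0.01 and -0.02 over all genes. These 3 comparisons share their Cre only libraries.

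**Figure D1:**
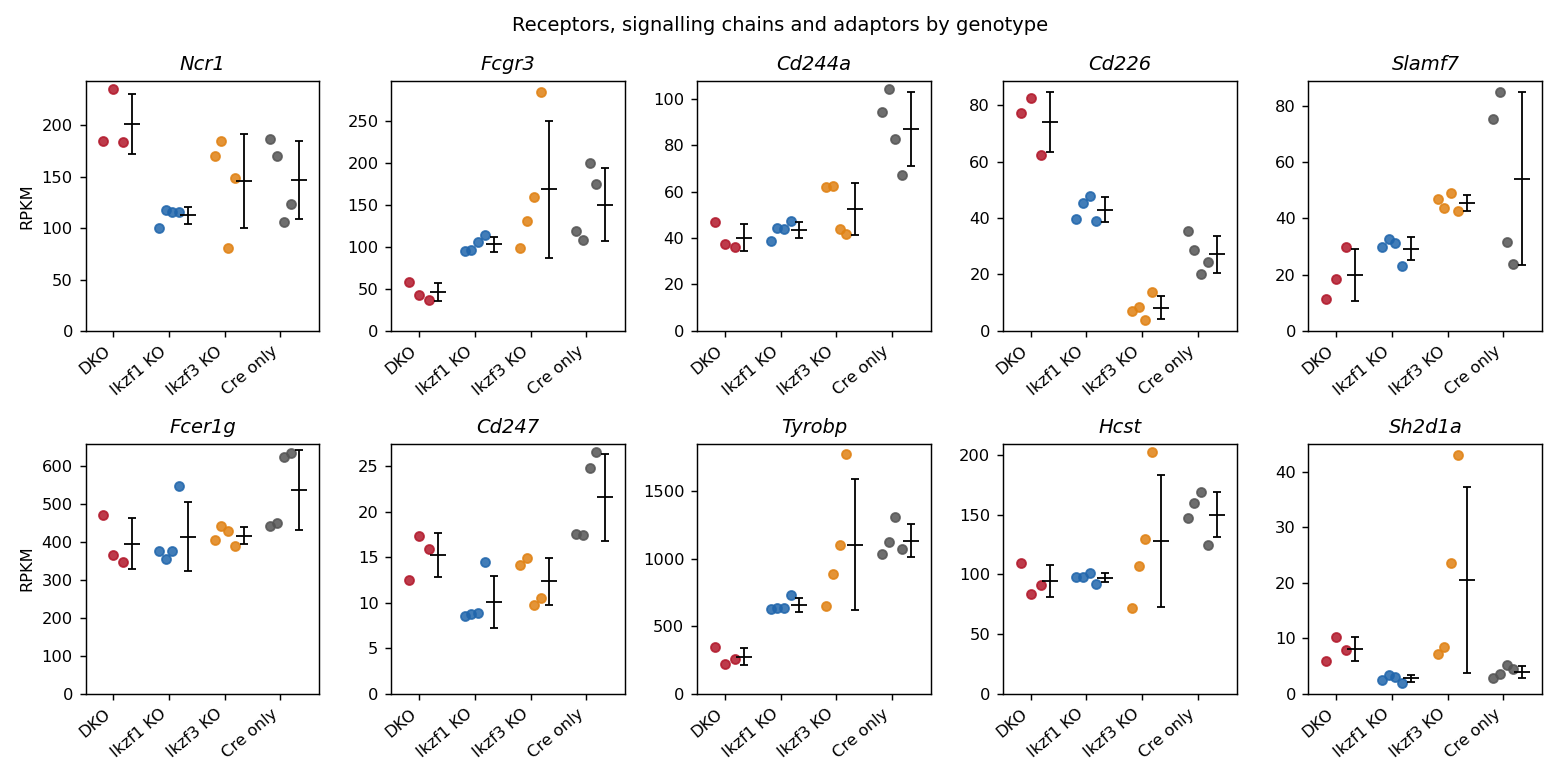
RPKM (y axis, linear from 0) of each of the 10 genes in every library, by genotype; points are libraries and the black mark is the mean ± SD (n = 3 DKO, 4 in each other genotype). Tyrobp and Fcgr3 in all 3 DKO libraries lie below every other library, and Cd226 in all 3 DKO libraries lies above every other library.

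DKO cells were also set against each single knockout. Against Ikzf1 KO cells, 2 of the 10 fell, Tyrobp and Fcgr3, and none was called higher, where 3.76% of all genes were called higher and 3.72% lower. Against Ikzf3 KO cells, Cd226 rose and 3 fell, Tyrobp, Fcgr3 and Slamf7, where 10.2% of all genes were called higher and 9.85% lower. The departure of DKO from the sum of the single deletions on the log2 scale was called for Cd226 and Cd247, both above the sum, where 3.63% of all genes were called above and 2.92% below. The median departure of the 10 genes was 0.28, against 0.00 over all genes.

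**Figure D2:**
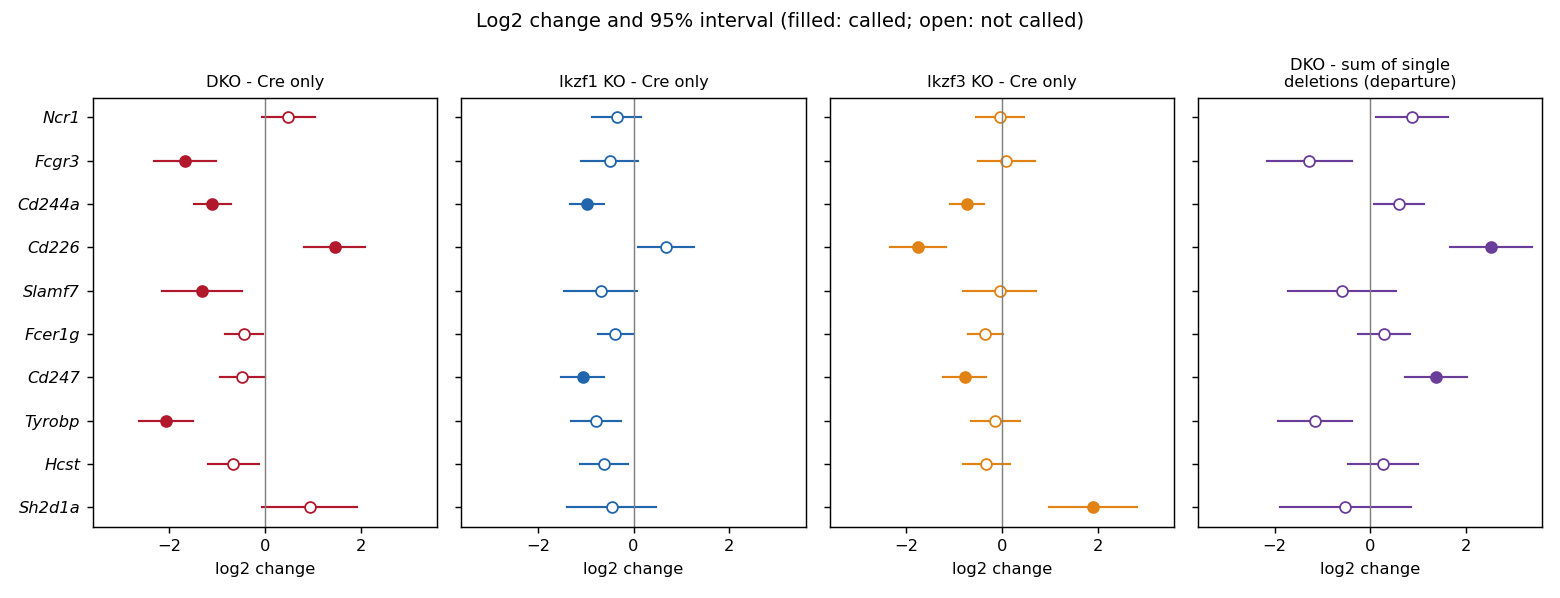
Log2 change (x axis) with its 95% interval for the 10 genes (rows) in DKO, Ikzf1 KO and Ikzf3 KO against Cre only cells and for the departure of DKO from the sum of the single deletions; filled points were called. In the 3 comparisons with Cre only cells, Cd226 is the single row called on both sides of 0, at 1.45 in DKO and -1.75 in Ikzf3 KO cells, and Cd244a is the single row called lower in all 3 genotypes.

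Fcgr3, the CD16 receptor that binds IgG on target cells, was lowest in DKO cells. Its levels were 58.9, 42.7 and 37.4 RPKM in the DKO libraries, 95.9 to 115 in Ikzf1 KO, 99.4, 131, 160.1 and 286 in Ikzf3 KO libraries S1 to S4, and 119.8, 108, 200.2 and 175 in Cre only libraries S16 to S19. All 3 DKO libraries lay below all 12 others, while Ikzf3 KO and Cre only libraries overlapped throughout. The log2 change was -1.67 ± 0.30 (SE) in DKO against Cre only cells (limma with Benjamini-Hochberg, adjusted p = 0.00157), a level 0.314 times that of the controls. Against Ikzf3 KO cells the log2 change was -1.77 ± 0.30 (limma, adjusted p = 0.000965). These calls held in all 28 and all 27 alternatives, with ranges of -2.03 to -1.31 and -1.99 to -1.32. Against Ikzf1 KO cells the log2 change was -1.17 ± 0.30 (limma, adjusted p = 0.0288), and this call was lost in 6 of 28 alternatives, those without S6, S7 or any single Ikzf1 KO library, where the adjusted p reached 0.12. In Ikzf1 KO against Cre only cells Fcgr3 had a log2 change of -0.50, with a 95% interval of -1.10 to 0.10, and was not called. Fcgr3 shares long stretches of sequence with other Fc receptor genes, so the split of reads between them is uncertain.

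Ncr1, the NKp46 receptor that marks NK cells across mammals, was not called in any comparison. It had 185, 235 and 184 RPKM in DKO libraries, 100.3 to 118 in Ikzf1 KO, 170.4, 184, 80.7 and 148 in Ikzf3 KO libraries S1 to S4, and 187, 171, 106 and 124 in Cre only libraries S16 to S19. The DKO libraries lay above all Ikzf1 KO libraries and overlapped with the highest Cre only and Ikzf3 KO libraries. The log2 change in DKO was 0.48 ± 0.26 against Cre only cells (limma, adjusted p = 0.213) and 0.83 ± 0.26 against Ikzf1 KO cells (limma, adjusted p = 0.0646).

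Cd244a, the 2B4 receptor for CD48, was lower in all 3 genotypes than in Cre only cells. Its levels were 46.8, 37.5 and 35.9 RPKM in DKO libraries, 38.9 to 47.4 in Ikzf1 KO, 62.0, 62.4, 43.9 and 41.9 in Ikzf3 KO libraries S1 to S4, and 94.4, 104, 82.6 and 67.3 in Cre only libraries. No library of the 3 knockout genotypes reached the lowest Cre only library, and DKO and Ikzf1 KO libraries overlapped. The log2 change was -1.10 ± 0.18 in DKO cells (limma, adjusted p = 0.000734), and the call held in all 28 alternatives, at -1.31 to -0.90. It was -0.98 ± 0.17 in Ikzf1 KO cells (limma, adjusted p = 0.00303), a call lost without S16 and S17 (adjusted p = 0.0529). It was -0.73 ± 0.17 in Ikzf3 KO cells (limma, adjusted p = 0.0121), a call lost when the pair S3 and S4 or the pair S16 and S17 was left out, and with only the 2 groups in the fit (highest adjusted p = 0.129). DKO against Ikzf1 KO cells gave a log2 change of -0.13 with a 95% interval of -0.51 to 0.26. The departure from the sum was 0.60 ± 0.25 (limma, adjusted p = 0.176).

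Slamf7, the CRACC receptor that binds itself on neighbouring cells, spread widely in the controls. It had 11.3, 18.6 and 29.8 RPKM in DKO libraries S5 to S7, 23.2 to 32.6 in Ikzf1 KO, 42.6 to 48.9 in Ikzf3 KO, and 75.4, 85.1, 31.7 and 23.8 in Cre only libraries S16 to S19. Cre only S16 and S17 lay above every other library, whereas S18 and S19 lay among the Ikzf1 KO and DKO libraries. The log2 change in DKO against Cre only cells was -1.32 ± 0.39 (limma, adjusted p = 0.0285), a call lost in 6 of 28 alternatives, with only the 2 groups in the fit, without S5, S6, S16 or S17, and without S16 and S17 together. Without S16 and S17 it was -0.56 (limma, adjusted p = 0.275), and without S18 and S19 it was -2.09. The DKO libraries did not overlap with the Ikzf3 KO libraries, and the log2 change between these genotypes was -1.28 ± 0.39 (limma, adjusted p = 0.0325), a call lost in 4 of 27 alternatives, without S3, S5, S6 or both S3 and S4. In Ikzf3 KO against Cre only cells the value changed sign with the controls used, at -0.05 with all libraries and 0.71 without S16 and S17, and was not called in any alternative. An exon of Slamf7 overlaps the antisense gene Gm37787, whose reads cannot be told apart here because the strand setting of the counting was not given.

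Cd226, the DNAM-1 receptor for CD155 and nectin-2, differed most widely between genotypes. It had 77.1, 82.5 and 62.3 RPKM in DKO libraries, 39.8, 45.4, 47.8 and 39.0 in Ikzf1 KO libraries, 7.14, 8.45, 3.81 and 13.6 in Ikzf3 KO libraries, and 35.3, 28.6, 20.2 and 24.4 in Cre only libraries. The 4 genotypes formed a ladder without overlap, Ikzf3 KO lowest, then Cre only, Ikzf1 KO and DKO. The log2 change against Cre only cells was 1.45 ± 0.30 in DKO cells (limma, adjusted p = 0.00372) and -1.75 ± 0.28 in Ikzf3 KO cells (limma, adjusted p = 0.00131). DKO cells were 9.21 times as high as Ikzf3 KO cells, with a log2 change of 3.20 ± 0.30 (limma, adjusted p = 5.67e-06). In Ikzf1 KO against Cre only cells the log2 change was 0.68 ± 0.28 and not called (limma, adjusted p = 0.175), nor was that of DKO against Ikzf1 KO cells, 0.77 ± 0.30 (adjusted p = 0.136). The DKO value lay above the sum of the single deletions by 2.52 ± 0.41 (limma, adjusted p = 0.00242). All 4 of these calls held in every alternative run, 26 to 28 per comparison, where the log2 change ranged from 1.198 to 1.704 for DKO and from -2.02 to -1.45 for Ikzf3 KO against Cre only cells.

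Marker lists of other cell types also differed between genotypes, and the ILC1 list had its highest sums in DKO and its lowest in Ikzf3 KO cells. Cd226 was also highest in DKO and lowest in Ikzf3 KO cells. The ILC1 sums of DKO overlapped with Ikzf1 KO, and those of Ikzf3 KO with Cre only cells. The ILC1 list, of which 7 of 8 had a row, summed to 516 to 705 RPKM in DKO cells, 448 to 517 in Ikzf1 KO, 46.1 to 133 in Ikzf3 KO and 129 to 386 in Cre only cells. Tmem176a (107 to 114.8 RPKM) and Tmem176b (226 to 244.7 RPKM) made up much of the DKO sums. In DKO against Cre only cells 4 of the 7 were called higher, none lower and 3 were not called. Itga1 had a lower median in DKO than in Cre only cells, 2.17 against 8.36 RPKM, with ranges that overlapped. The T cell list, of which 13 of 15 had a row, summed to 1002 to 1774 RPKM in DKO cells, 499 to 592 in Ikzf1 KO, 600.2 to 805 in Ikzf3 KO and 488 to 746 in Cre only cells. Its sums were highest in DKO cells, while those of Ikzf3 KO overlapped with Cre only cells and lay above those of Ikzf1 KO. In DKO against Cre only cells 6 of the 9 tested T cell markers were called higher, none lower and 3 were not called. Their median log2 change was 1.82, and 8.06% of all genes tested were called higher. Cd3e, a chain of the T cell receptor complex, had 24.8 to 44.8 RPKM in DKO cells and 0.237 to 3.1 in Cre only cells. Cd8a was low in both, at most 0.0554 RPKM in DKO and 0.761 in Cre only cells. The B cell list, of which 2 of 10 had a row, was almost wholly Ighm, with 140.3 to 195 RPKM in DKO, 27.3 to 47.5 in Ikzf1 KO, 27.9 to 106 in Ikzf3 KO and 20.4 to 39.9 in Cre only cells. Ighm, an immunoglobulin heavy chain gene, rose in DKO cells by a log2 change of 2.55 ± 0.41 (limma, adjusted p = 0.000584). The part of these cell types in the values of the 10 genes, of which T cells also express Cd226, Cd247 and Sh2d1a, was not tested.

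Among the signalling chains, Tyrobp (DAP12) was the one called lower in DKO against Cre only cells. It had 343, 220.1 and 255 RPKM in DKO libraries, 627, 632, 637 and 731 in Ikzf1 KO libraries, 647, 886, 1102 and 1773 in Ikzf3 KO libraries S1 to S4, and 1036, 1122, 1308 and 1068 in Cre only libraries. All 3 DKO libraries were below all others, and all Ikzf1 KO libraries were below all Cre only libraries, whereas the Ikzf3 KO libraries spanned both. The log2 change was -2.07 ± 0.26 in DKO against Cre only cells (limma, adjusted p = 7.81e-05), and -1.94 ± 0.26 against Ikzf3 KO cells (limma, adjusted p = 0.000146). Both calls held in every alternative, at -2.25 to -1.93 and -2.161 to -1.496. Against Ikzf1 KO cells it was -1.29 ± 0.26 (limma, adjusted p = 0.00711), a call lost without S6 (adjusted p = 0.0563). In Ikzf1 KO against Cre only cells the log2 change of -0.78 ± 0.24 was not called (limma, adjusted p = 0.0717), although it was in 7 of 28 alternatives. Of 14 monocyte, macrophage and neutrophil markers, which come from cells rich in Tyrobp, Fcgr3 and Fcer1g, 3 had a row. Their sums were 5.48 to 19.4 RPKM in DKO cells, 20.7 to 22.7 in Ikzf1 KO, 25.4 to 77.4 in Ikzf3 KO and 14.97 to 34.6 in Cre only cells, mostly Cd68. Lyz2 ran the other way, with 0.918 to 1.94 RPKM in DKO libraries and 0 in all Cre only libraries, and so did Cd14, which averaged 1.06 RPKM in DKO and 0.249 in Cre only cells (log2 change 1.06 ± 0.31; limma, adjusted p = 0.0278). Their part in the values of these chains and of Fcgr3 was not tested.

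Hcst (DAP10) is the neighbour of Tyrobp, and the genes converge on chromosome 7 of mm10. Tyrobp lies at chr7:30413760-30417585 on the plus strand and Hcst at chr7:30417712-30419854 on the minus strand, with 126 bases between their ends. Hcst had 109, 83.2 and 91.1 RPKM in DKO libraries, 92.3 to 101 in Ikzf1 KO, 71.8, 107, 129 and 203 in Ikzf3 KO libraries S1 to S4, and 147, 160, 169 and 125 in Cre only libraries. DKO and Ikzf1 KO libraries all lay below the lowest Cre only library. The log2 change of -0.66 ± 0.25 in DKO cells was not called (limma, adjusted p = 0.0809), and it was called in 6 of 28 alternatives. That of -0.61 ± 0.23 in Ikzf1 KO cells was not called either (limma, adjusted p = 0.144), and it was called in 5 of 28. Between DKO and Ikzf1 KO cells the log2 change was -0.05, with a 95% interval of -0.58 to 0.49.

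Ratios within a library set the neighbours side by side. Tyrobp over Hcst was 2.64 to 3.14 in DKO libraries, 6.33 to 7.92 in Ikzf1 KO, 8.29 to 9.01 in Ikzf3 KO and 7.01 to 8.56 in Cre only libraries. The ratio in DKO cells stood apart from all others, although Tyrobp and Hcst moved together within genotypes, with a Pearson r of 0.941 between their deviations from the genotype means over 15 libraries. This relation was carried largely by the Ikzf3 KO libraries, in which both genes were lowest in S1 and highest in S4. The ratios were chosen after values were known, and no test was made of them.

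Fcer1g (FcRγ), shared by CD16, NKp46 and the IgE receptor, was not called in any comparison. It had 472, 365 and 348 RPKM in DKO libraries, 376, 354, 377 and 549 in Ikzf1 KO libraries, 390.5 to 441 in Ikzf3 KO, and 442, 449.6, 623 and 635 in Cre only libraries. Ikzf3 KO libraries were all below the lowest Cre only library, while a DKO and an Ikzf1 KO library reached into the Cre only range. The log2 change against Cre only cells was -0.44 ± 0.19 in DKO (limma, adjusted p = 0.123), -0.38 ± 0.17 in Ikzf1 KO (adjusted p = 0.242) and -0.35 ± 0.17 in Ikzf3 KO cells (adjusted p = 0.173). Of 11 mast cell and basophil markers 5 had a row, summing to 53.2 to 101 RPKM in DKO cells, 132 to 203 in Ikzf1 KO, 119.5 to 215 in Ikzf3 KO and 75.2 to 185 in Cre only cells, mostly Kit and Mcpt8. In DKO against Cre only cells 1 of 4 tested markers was called higher and 2 lower. Cma1 ran against the sums, with 1.05 to 18.96 RPKM in DKO and 0.127 to 0.935 in Cre only cells. The part of these markers in the Fcer1g values was not tested. Fcer1g was the most abundant of the 10 genes in DKO cells and Tyrobp in the other 3 genotypes. Fcer1g over Tyrobp was 1.36 to 1.66 in DKO libraries, 0.561 to 0.751 in Ikzf1 KO, 0.22 to 0.627 in Ikzf3 KO and 0.401 to 0.595 in Cre only libraries, above 1 only in the DKO libraries.

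Cd247 (CD3ζ) was lower in both single knockouts than in Cre only cells. It had 12.5, 17.3 and 15.9 RPKM in DKO libraries, 8.49, 8.69, 8.82 and 14.4 in Ikzf1 KO libraries, 14.1, 14.9, 9.75 and 10.5 in Ikzf3 KO libraries S1 to S4, and 17.5, 17.4, 24.8 and 26.5 in Cre only libraries. All libraries of the knockout genotypes lay below the lowest Cre only library, although DKO S6 came within its reach. The log2 change was -1.06 ± 0.21 in Ikzf1 KO cells (limma, adjusted p = 0.00673), a call lost without S18 and S19 (adjusted p = 0.0762). It was -0.78 ± 0.21 in Ikzf3 KO cells (limma, adjusted p = 0.024), a call lost in 8 of 27 alternatives, among them those without S18, S19, S3 or S4. In DKO cells it was -0.47 ± 0.22 and not called (limma, adjusted p = 0.159). The DKO value lay above the sum of the single deletions by 1.37 ± 0.30 (limma, adjusted p = 0.0151), a call lost without S6 and without S18 and S19 (highest adjusted p = 0.0633). Exons of Cd247 overlap Gm16565 on the same strand and Pou2f1 on the opposite strand, both in the table, so reads there are of uncertain origin.

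The 3 ITAM chains together summed to 603 to 827 RPKM in DKO libraries, 994 to 1294 in Ikzf1 KO, 1067 to 2174 in Ikzf3 KO and 1496 to 1955 in Cre only libraries. Tyrobp made up 36.5% to 41.5% of this sum in DKO libraries, 56.5% to 63.5% in Ikzf1 KO, 60.7% to 81.6% in Ikzf3 KO and 61.8% to 70.6% in Cre only libraries. The DKO sums and shares lay below all others without overlap. Fcer1g over Cd247 was 21.2 to 37.7 in DKO libraries, 38.1 to 44.3 in Ikzf1 KO, 28.7 to 44.1 in Ikzf3 KO and 24 to 25.9 in Cre only libraries, with DKO libraries on both sides of the Cre only range.

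**Figure D3:**
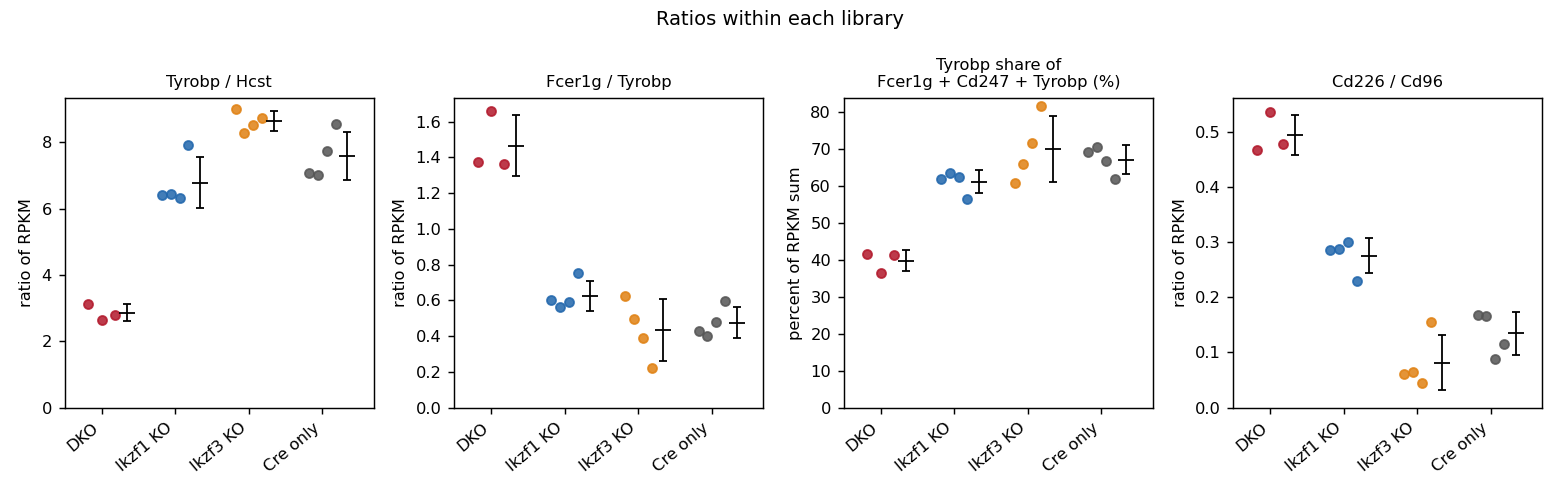
Ratios of RPKM within each library by genotype (y axes from 0): Tyrobp over Hcst, Fcer1g over Tyrobp, the percent share of Tyrobp in the summed ITAM chains, and Cd226 over Cd96; points are libraries, black marks the mean ± SD. DKO libraries stand apart from the other genotypes in all 4 panels, with Tyrobp over Hcst at 2.64 to 3.14.

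Sh2d1a (SAP), the adaptor that links SLAM receptors to the kinase Fyn, rose in Ikzf3 KO cells. It had 5.89, 10.2 and 7.88 RPKM in DKO libraries, 1.97 to 3.42 in Ikzf1 KO, 7.16, 8.36, 23.6 and 43.0 in Ikzf3 KO libraries S1 to S4, and 2.78, 3.46, 5.19 and 4.42 in Cre only libraries. All DKO and Ikzf3 KO libraries lay above all Cre only and Ikzf1 KO libraries, and within Ikzf3 KO the pair S3 and S4 stood well above S1 and S2. The log2 change in Ikzf3 KO against Cre only cells was 1.90 ± 0.43 (limma, adjusted p = 0.0117). It was 0.92 without S3 and S4, and the call was lost without S16 and S17 and with only the 2 groups in the fit (highest adjusted p = 0.101). In DKO cells the log2 change of 0.93 ± 0.47 was not called (limma, adjusted p = 0.19). An exon of Sh2d1a overlaps Tenm1 on the opposite strand.

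The other adaptors and receptors of the SLAM system were compared from a list of 10 genes, 6 of which were tested. In DKO against Cre only cells 3 fell, none rose and 3 did not pass, with a median log2 change of -0.33. For this list and those below, the shares called over all genes tested were 8.06% higher and 10.6% lower in DKO cells. They were 3.54% and 2.78% in Ikzf1 KO and 6.3% and 7.88% in Ikzf3 KO cells, each against Cre only cells. Sh2d1b1, the EAT-2 adaptor, had 17.8, 7.66 and 9.82 RPKM in DKO libraries, 23.7 to 31.3 in Ikzf1 KO, 31.1 to 43.4 in Ikzf3 KO and 32.9 to 40.7 in Cre only libraries. All DKO libraries lay below all others, and the log2 change was -1.71 ± 0.22 (limma, adjusted p = 0.000105). Its near copy Sh2d1b2, called ERT in the mouse, had at most 0.0762 RPKM in DKO cells, 0.402 to 2.08 in Ikzf1 KO, 2.66 to 17.7 in Ikzf3 KO and 0.578 to 2.67 in Cre only cells, though reads shared between the copies make both uncertain. Sh2d1b2 rose in Ikzf3 KO cells by a log2 change of 2.22 ± 0.49 (limma, adjusted p = 0.00964). Fyn fell in all 3 genotypes, with log2 changes of -0.72 in DKO, -0.42 in Ikzf1 KO and -0.46 in Ikzf3 KO cells. Cd48, the ligand of 2B4, fell in Ikzf3 KO cells (log2 change -0.79 ± 0.21; limma, adjusted p = 0.0225) and averaged 155 RPKM in DKO and 149 RPKM in Cre only cells.

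Sh2d1a over Sh2d1b1 described the balance of the adaptors. It was 0.331 to 1.33 in DKO libraries, 0.0832 to 0.109 in Ikzf1 KO, 0.22 to 0.992 in Ikzf3 KO and 0.0843 to 0.128 in Cre only libraries. DKO and Ikzf3 KO libraries lay above all Ikzf1 KO and Cre only libraries. In DKO cells Sh2d1b1 had fallen, whereas in Ikzf3 KO cells it was not called and Sh2d1a had risen.

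Of the nectin receptor family around Cd226, 4 of 9 listed genes were tested. In DKO against Cre only cells Pvrig fell and 3 did not pass, while in Ikzf3 KO cells 3 fell, Cd96, Crtam and Pvrig. Pvrig, an inhibitory receptor for nectin-2, had 13.9, 13.4 and 11.5 RPKM in DKO libraries, 26.7 to 28.7 in Ikzf1 KO, 15.5 to 27.8 in Ikzf3 KO and 45.0 to 55.4 in Cre only libraries. All knockout libraries lay below all Cre only libraries, and the DKO libraries lay below all others. Its log2 change was -1.96 ± 0.16 in DKO (limma, adjusted p = 1.51e-06), -0.88 ± 0.15 in Ikzf1 KO (adjusted p = 0.00252) and -1.26 ± 0.15 in Ikzf3 KO cells (adjusted p = 0.000167). Cd96, the inhibitory receptor for CD155, had 165, 154 and 130 RPKM in DKO libraries, 140 to 170.4 in Ikzf1 KO, 84.6 to 132 in Ikzf3 KO and 172 to 229.8 in Cre only libraries. Cd226 over Cd96 was 0.467 to 0.536 in DKO libraries, 0.229 to 0.301 in Ikzf1 KO, 0.045 to 0.155 in Ikzf3 KO and 0.0879 to 0.168 in Cre only libraries. DKO and Ikzf1 KO libraries lay above both other genotypes in this ratio.

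The Fc receptor family gave 4 tested genes of 10 listed. In DKO against Cre only cells Fcgrt, the neonatal Fc receptor chain that recycles IgG, rose and 3 did not pass. Fcgrt had 11.8, 3.71 and 2.18 RPKM in DKO libraries and at most 0.471 RPKM in any other library (log2 change 3.25 ± 0.39; limma, adjusted p = 4.79e-05). Among the receptors that pair with DAP10 or DAP12, 7 of 14 listed genes were tested, and in DKO cells 1 rose, 3 fell and 3 did not pass. Klra8, the Ly49H receptor that recognises a cytomegalovirus protein through DAP12, averaged 22.9 RPKM in DKO, 109 in Ikzf1 KO, 90.9 in Ikzf3 KO and 190.2 RPKM in Cre only cells. Its log2 change in DKO cells was -3.07 ± 0.33 (limma, adjusted p = 2.08e-05). Klra4, the Ly49D receptor, fell by 2.14 ± 0.42 on the log2 scale in DKO cells (limma, adjusted p = 0.00293), and both genes belong to a family of near copies among which reads may be split. Klrk1, the NKG2D receptor carried by DAP10, had a log2 change of 0.45 ± 0.22 in DKO cells and was not called (limma, adjusted p = 0.176). In Ikzf1 KO cells none of the 7 was called, and in Ikzf3 KO cells 2 fell.

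Downstream of the chains, 29 of 31 listed genes of proximal ITAM and DAP10 signalling were tested. In DKO against Cre only cells 3 rose, 7 fell and 19 did not pass, with a median log2 change of -0.28. Lat2, the adaptor NTAL, had 5.66, 4.77 and 8.11 RPKM in DKO libraries, 10.2 to 13.9 in Ikzf1 KO, 21.9 to 39.3 in Ikzf3 KO and 21.8 to 27.3 in Cre only libraries. Its log2 change was -1.92 ± 0.21 in DKO (limma, adjusted p = 2.2e-05) and -1.08 ± 0.19 in Ikzf1 KO cells (adjusted p = 0.00388). Lat, the related adaptor best known from T cells, ran the other way, with 32.3, 62.8 and 44.7 RPKM in DKO libraries, 11.8 to 23.6 in Ikzf1 KO, 11.2 to 15.4 in Ikzf3 KO and 16.2 to 23.8 in Cre only libraries. All DKO libraries were above all others for Lat, and DKO lay above the sum of the single deletions by 2.14 ± 0.34 (limma, adjusted p = 0.0021). The T cell list, summed above, was also highest in DKO cells, and its part in the Lat value was not tested. Plcg2, a phospholipase downstream of ITAM kinases, fell in DKO (log2 change -0.95 ± 0.17) and Ikzf3 KO cells (-0.73 ± 0.15). Pik3r1, the regulatory subunit of phosphoinositide 3-kinase, fell by 0.89 ± 0.16 on the log2 scale in DKO cells. Syk, the kinase that docks on ITAMs, was not called in any comparison, with a log2 change of -0.31 ± 0.31 in DKO cells.

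In Ikzf1 KO cells 2 of these 29 genes rose, 1 fell and 26 did not pass, and in Ikzf3 KO cells none rose, 6 fell and 23 did not pass. Over all genes tested, 3.54% were called higher and 2.78% lower in Ikzf1 KO, and 6.3% and 7.88% in Ikzf3 KO cells. Zap70, the other ITAM kinase, fell by 0.47 ± 0.15 on the log2 scale in DKO cells (limma, adjusted p = 0.0373) and by 0.57 ± 0.14 in Ikzf3 KO cells (limma, adjusted p = 0.0147). Of 17 tested genes that act as brakes on activating receptors, 2 rose, 6 fell and 9 did not pass in DKO cells, 2 fell and 15 did not pass in Ikzf1 KO cells, and 3 fell and 14 did not pass in Ikzf3 KO cells. Inpp5d, the SHIP1 phosphatase, averaged 27.5 RPKM in DKO, 42.0 in Ikzf1 KO, 27.6 in Ikzf3 KO and 54.4 RPKM in Cre only cells. Its log2 change was -1.03 ± 0.22 in DKO (limma, adjusted p = 0.00514) and -0.998 ± 0.204 in Ikzf3 KO cells (adjusted p = 0.0069). Pag1, which holds the inhibitory kinase Csk at the membrane, fell by 1.33 ± 0.22 on the log2 scale in DKO and by 1.78 ± 0.20 in Ikzf3 KO cells. Dgka, a diacylglycerol kinase, fell by 1.34 ± 0.27 in Ikzf1 KO cells (limma, adjusted p = 0.00832). The counts of called genes moved with the alternatives, from 6 to 17 of the signalling list and from 4 to 12 of the brakes in DKO against Cre only cells. The share of all genes called under each alternative was not given beside them.

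**Figure D4:**
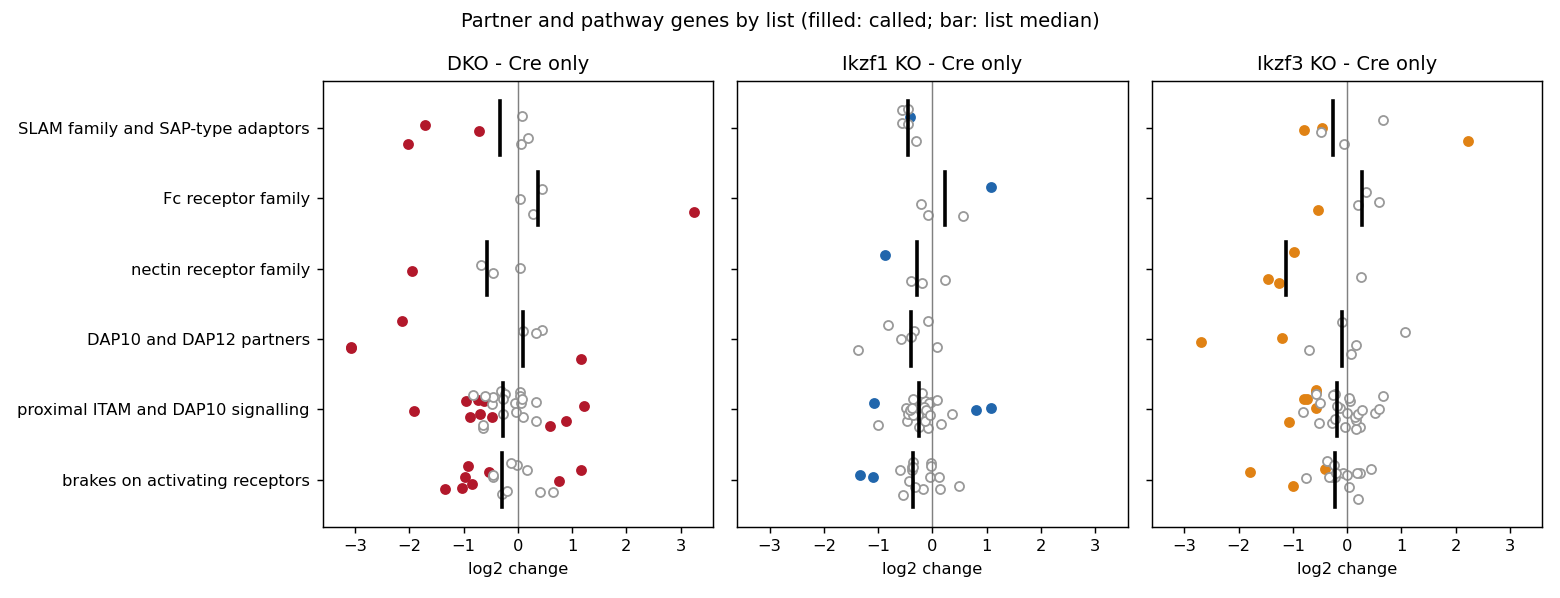
Log2 change (x axis) of each tested gene of the 6 partner and pathway lists (rows) in DKO, Ikzf1 KO and Ikzf3 KO against Cre only cells; filled points were called, open points were not, and the bar is the list median. In DKO cells Klra8, at -3.07, and Cd300lb lie farthest left and Fcgrt, at 3.25, farthest right.

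The genes whose patterns were most like each of the 10 were sought among 6306 genes of a mean of at least 5 RPKM, as Pearson r of log2(RPKM + 0.5) over the 15 libraries. The libraries share genotypes, so the r describe these samples and carry no test. Fcgr3 and Tyrobp were nearest to each other (r = 0.962), the only such pair among the 10. Cd226 was nearest to Tnfsf10, the TRAIL gene (r = 0.975), which is also on the ILC1 list. Cd244a was nearest to Asb1 and Dusp6 (r = 0.969 and 0.962), Slamf7 to Rnf128 (0.971), Sh2d1a to Arhgap15 (0.968) and Hcst to Smpdl3a (0.952). Ncr1 was nearest to Tmem33 (0.935), Fcer1g to the phosphatase gene Dusp2 (0.913) and Cd247 to Hsd17b7 (0.901). Within genotypes, Fcgr3 and Tyrobp had an r of 0.874, and Fcer1g and Slamf7 had an r of -0.835, against -0.122 over the 15 libraries without regard to genotype. The relation of Fcer1g and Slamf7 was carried largely by the Cre only libraries. There S16 and S17 were above the genotype mean for Slamf7 and below it for Fcer1g, and S18 and S19 were the reverse. Fcgr3, Fcer1g, Cd244a and Slamf7 lie within 602 kilobases of chromosome 1, and in DKO cells 3 of these neighbours fell while Fcer1g between them was not called. The call of Slamf7 was lost in 6 of 28 alternatives. Other genes lie there too, such as Ly9, which overlaps Cd244a on the opposite strand. Ly9 was not called in DKO cells (log2 change 0.19 ± 0.28; limma, adjusted p = 0.688).

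**Figure D5:**
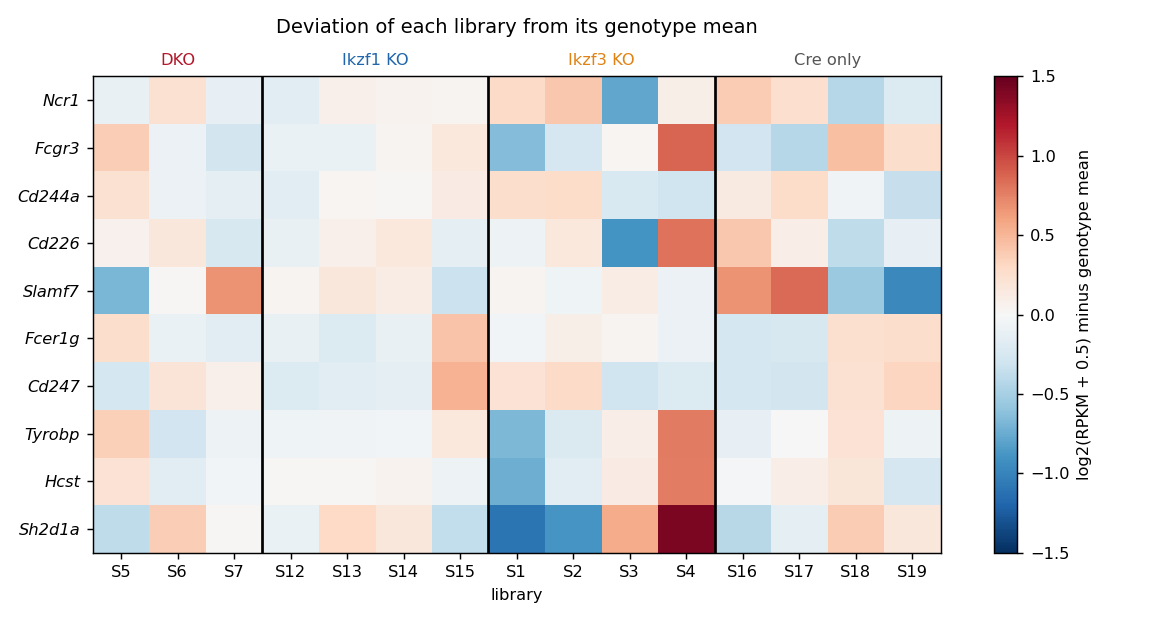
Deviation of log2(RPKM + 0.5) of each gene (rows) in each library (columns, grouped by genotype) from its genotype mean; red is above and blue below. Ikzf3 KO S4 is above its genotype mean for Sh2d1a by 1.42, Fcgr3 by 0.87, Tyrobp by 0.79 and Hcst by 0.77, and Cre only S16 and S17 part from S18 and S19 most for Slamf7.

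The libraries varied by gene in different ways. Ikzf3 KO S4 had the highest Fcgr3, Tyrobp, Hcst, Cd226 and Sh2d1a of its genotype and S1 the lowest Fcgr3, Tyrobp, Hcst and Sh2d1a, so these genes moved together within Ikzf3 KO cells. In Cre only cells, S18 and S19 exceeded S16 and S17 in Fcer1g, Cd247, Fcgr3 and Sh2d1a and were below them in Ncr1, Cd226, Cd244a and Slamf7. The labels name no batch for any of them.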

How the data were processed

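Polyadenylated RNA of cultured splenic NK cells was sequenced as stranded 75 bp single-end libraries, per the labels' protocols, which call the replicates biological. Per the submitters' processing notes, STAR, featureCounts, limma 3.34.9 and mm10 were used, with settings not given in the sources used here. The authors deposited RPKM without counts. Depths came from values times GENCODE M21 exon lengths, which were whole numbers of reads (within 0.02 read) in every library for 96.2% of genes. Genes with at least 1 RPKM in at least 3 of 15 libraries (10032 of 11736) were tested. Values were transformed to log2(RPKM + 0.5), so changes of low genes are understated. The fit, in limma 3.58.1 under R 4.3.3, gave each genotype a mean and used a mean-variance trend and robust moderation, with 11 residual degrees of freedom. Tests were 2-sided with Benjamini-Hochberg adjustment. The fit was tried on simulated data with independent noise, which lacks the pairs of like libraries seen here, so error rates under such pairs were not checked. Values are mean RPKM ± SD and log2 change ± SE. The genes, lists, tests and naming rule were chosen with earlier results of these data known. All 10 genes are named; from each list up to 3 called genes per comparison of a mean of at least 5 RPKM were eligible, and others named were chosen after their values were seen. Alternatives were other pseudocounts, filters, scalings, moderation, array weights, 2-group fits and left-out libraries. A term for libraries S5, S15, S18 and S19 was added after seeing the data. Figures used Python 3.11.15, numpy 2.4.6, pandas 2.3.3 and matplotlib 3.10.9.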

Additional observations from a re-analysis of the deposited data

Results flagged for a closer look

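Within groups of 4 libraries, 4 of 30 sets of values had a library far from the other 3, by a rule that flags about 1 in 20 by chance. The sets share libraries, and all those flagged except Ncr1 came from S15, so the count does not test for an excess over that rate. Ncr1 was 100.3 RPKM in Ikzf1 KO S12, below 3 close values. Ikzf1 KO S15 stood above the other 3 for Fcer1g at 548.8 RPKM, for Cd247 at 14.4 RPKM and for Tyrobp at 731.1 RPKM, while the other Ikzf1 KO libraries agreed closely. S15 was also the deepest library, at 21.25 megareads, and a member of the set with S5, S18 and S19. The part of either in these values was not tested.

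The effect of deleting both genes differed from the sum of the single deletions for 2 of 10 genes in the limma interaction term, Cd247 by 1.37 and Cd226 by 2.524 on the log2 scale.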

How the results depend on the processing

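Over all alternatives, 1511 log2 changes of the 10 genes kept their direction and their side of the threshold, 68 gained a call, 34 lost one and 27 changed sign. The number of the 10 genes called in DKO against Cre only cells was 5, and 8 without S3 and S4 and 9 with the added term for S5, S15, S18 and S19. In Ikzf1 KO against Cre only cells it was 2, and 5 with only the 2 groups in the fit, 8 with array weights and with the added term, 5 without S3 and S4 and 1 when S16 and S17 were left out; single libraries left out gave 2 to 4. In Ikzf3 KO against Cre only cells it was 4, and 1 with only the 2 groups and 2 without S16 and S17. In DKO against Ikzf1 KO cells it was 2, and 5 with only the 2 groups, 6 with array weights, 5 without S3 and S4 and 6 with the added term; single libraries left out gave 0 (without S6) to 4. The departure called 2, and 4 with array weights, with 1 (without S6) to 4 (without S1) when single libraries were left out. How many of all tested genes were called was not given for these alternatives, so the counts say nothing particular about the 10 genes. The cause of the moves was not tested, and with groups left out fewer samples share the spread.

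Values that changed sign were all uncalled. In Ikzf1 KO against Cre only cells, Slamf7 was 0.077 without S16 and S17. In Ikzf3 KO against Cre only cells, Ncr1 was 0.152 with array weights, 0.31 with S3 and S4 left out and 0.282 with S16 and S17 left out (single libraries -0.18 to 0.225). Fcgr3 was -0.113, -0.354 and -0.261 under the same settings (single libraries -0.192 to 0.314), Tyrobp ranged from -0.395 to 0.089 over single libraries, and Slamf7 was 0.714 without S16 and S17 (single libraries -0.371 to 0.234). In DKO against Ikzf1 KO cells, Fcer1g was 0.017 with array weights (single libraries -0.192 to 0.086) and Hcst ranged from -0.158 to 0.038. In DKO against Ikzf3 KO cells, Fcer1g was 0.138 with quantile normalization, Hcst 0.1 without S3 and S4, and Sh2d1a 0.064 with array weights and 0.012 without S3 and S4. The departure was 0.173 for Slamf7 without S18 and S19, and for Sh2d1a 0.289 with array weights and 0.468 without S3 and S4. No paired analysis was possible because the columns carry no replicate numbers of the labels. DKO has 3 libraries, and the fewest reads behind a value of the 10 genes were 221.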
